A study of Mus musculus with 22 samples.

Results

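The claudin tight junction genes described here are *Cldn1*, *Cldn3*, *Cldn4*, *Cldn5*, *Cldn6*, *Cldn7*, *Cldn10*, *Cldn11*, *Cldn12* and *Cldn23*. These 10 genes were found by matching their symbols to Ensembl identifiers, and all 10 were present in both count tables, among 30332 genes of either table. RNA was sequenced from 22 libraries, each made from 100 tdTomato+ cells sorted from mouse pancreas. *Isl1CKO* cells carried *Isl1* f/f, *Neurod1*-Cre and the Ai14 tdTomato reporter. Control cells carried *Isl1* f/+, *Neurod1*-Cre and the same reporter where the study describes the E14.5 groups, while its methods give *Isl1* f/+ or *Isl1* f/f mice as controls and the labels call them WT. There were 5 *Isl1CKO* and 6 control libraries from embryos at E14.5, and 6 *Isl1CKO* and 5 control libraries from pups at P9. *Neurod1*-Cre acts in endocrine precursors and the cells that descend from them, so that the sort took the whole endocrine lineage and no single hormone cell type. The P9 pancreas was perfused with collagenase before the trypsin step that both ages received, so that age and dissociation cannot be told apart.

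Claudins are membrane proteins that cross the membrane several times and pair with claudins of the neighbouring cell to form the strands of the tight junction. Some of them seal the space between cells, and others form pores for ions in it. Epithelia combine several claudins, and pancreatic endocrine cells arise from such an epithelium as they leave the duct-like trunk and gather into islets.

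*Cldn4* rose in *Isl1CKO* endocrine cells at both ages, *Cldn5* rose at P9, and *Cldn11* fell at E14.5. At E14.5, 7 of the 10 claudins had enough counts for the test, of which 1 rose, 1 fell and 5 did not pass. At P9, 8 were tested, of which 2 rose, none fell and 6 did not pass. Of these, *Cldn5* met the count filter through the *Isl1CKO* libraries, with raw counts of 34 to 1099 there and 3 to 13 in controls. It could thus hardly have been called as lower. Over all genes tested with edgeR's quasi-likelihood test at an adjusted p under 0.05, 0.602% rose and 0.827% fell at E14.5, and 2.66% rose and 2.14% fell at P9. The median log2 fold change of the claudins tested was 0.20 at E14.5 and 0.00 at P9, against 0.00 and 0.02 over all genes tested. The study calls the libraries biological replicates and the labels do not tie them to animals, so the p-values measure the spread between these libraries, part of which may be technical. In such bulk samples, fewer cells of a type and less RNA per cell cannot be told apart.

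The start regions of the 3 claudins that changed between *Isl1CKO* and control are shown because ISL1, a LIM-homeodomain factor, belongs to proteins that bind a TAAT core, and NEUROD1, a basic helix-loop-helix factor, binds the E-box CANNTG. Each runs 5′ to 3′ over 300 bases, 250 before and 50 after the start given by RefSeq on GRCm38.p6. Capitals mark TAAT on either strand, which reads ATTA on the other, and CANNTG, which reads the same on both strands. The *Cldn4* window is chr5:134946885-134947184 on the minus strand, the *Cldn5* window chr16:18776597-18776896 on the plus strand, and the *Cldn11* window chr3:31149670-31149969 on the plus strand.
Cldn4: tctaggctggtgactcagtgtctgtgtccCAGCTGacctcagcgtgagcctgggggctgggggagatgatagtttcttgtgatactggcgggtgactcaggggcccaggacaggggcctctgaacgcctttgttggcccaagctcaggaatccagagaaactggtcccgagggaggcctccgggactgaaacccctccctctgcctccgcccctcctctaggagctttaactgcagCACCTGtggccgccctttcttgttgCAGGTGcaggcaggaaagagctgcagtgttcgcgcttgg
Cldn5: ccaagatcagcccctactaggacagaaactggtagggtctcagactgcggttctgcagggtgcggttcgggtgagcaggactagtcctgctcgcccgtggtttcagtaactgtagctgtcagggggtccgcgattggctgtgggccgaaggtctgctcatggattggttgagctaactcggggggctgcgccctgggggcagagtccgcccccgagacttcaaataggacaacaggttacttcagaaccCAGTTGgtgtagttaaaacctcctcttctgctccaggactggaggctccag
Cldn11: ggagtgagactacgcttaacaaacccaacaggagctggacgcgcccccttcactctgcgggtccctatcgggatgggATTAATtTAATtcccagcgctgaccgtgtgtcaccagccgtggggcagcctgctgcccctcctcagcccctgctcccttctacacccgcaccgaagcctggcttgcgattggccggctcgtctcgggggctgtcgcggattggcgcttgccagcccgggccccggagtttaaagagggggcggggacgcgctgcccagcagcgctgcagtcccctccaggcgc

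The window of *Cldn4* held 3 E-boxes and that of *Cldn5* held 1, and neither held TAAT. The window of *Cldn11* held TAAT 3 times, where the first 2 matches overlap each other, and no E-box. Among 32851 such windows of mouse genes, 58.0% held TAAT and 72.3% held CANNTG, so that each motif is common in windows of this length. A match of letters is a description and not a binding site. The study also mapped ISL1 on the chromatin of E14.5 endocrine cells. It lists *Cldn4* among progenitor genes raised at P9 with ISL1 at their promoters, over wider regions than these windows. It further names *Cldn4* among the genes of intermediate endocrine states enriched in *Isl1CKO* cells at E14.5. Of the 10 claudins, 9 had at least 1 window in the table.

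*Cldn4* was the most abundant claudin per length in each of the 4 groups. Its product seals epithelial junctions and, together with that of *Cldn3*, serves as receptor for an enterotoxin of *Clostridium perfringens*. Levels are given as CPM, raw counts taken relative to library sizes that were scaled by TMM over all 22 libraries, and comparisons between genes as CPM per kb of exon. *Cldn4* averaged 363 ± 50.8 CPM per kb in *Isl1CKO* cells at E14.5 (SD, n = 5) and 206 ± 64.4 in controls (n = 6), and 174 ± 116 in *Isl1CKO* cells at P9 (n = 6) and 54.6 ± 21.01 in controls (n = 5). That was 66.7% of the summed mean level of the 10 claudins in *Isl1CKO* cells and 53.0% in controls at E14.5, and 66.5% in *Isl1CKO* cells and 42.3% in controls at P9. The gene is a single exon block of 1816 bases on the minus strand of chromosome 5, from 134945119 to 134946934.

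The *Cldn4* level was 552, 798, 655, 608 and 686 CPM in *Isl1CKO* libraries 1 to 5 at E14.5. In the control libraries at E14.5 the lowest was 259, the median 329 and the highest 525 CPM. Every *Isl1CKO* library was above every control library, which held for 1 of the 7 claudins tested and, in either direction, for 2.49% of all genes tested. The difference on the log2 scale was 0.82 (standard error, SE, 0.18, adjusted p = 0.0332, edgeR), a 1.77-fold higher level. The call was lost on leaving out any 1 of 8 of the 11 libraries, namely controls 1 to 4 and *Isl1CKO* libraries 2 to 5, with log2 fold changes of 0.73 to 0.85 and adjusted p between 0.059 and 0.0928. It was also lost in 1 model over all 22 libraries, at a log2 fold change of 0.82 and an adjusted p of 0.647. Without *Isl1CKO* libraries 3, 4 and 5 the call was lost at 0.86 and 0.38. That setting kept only *Isl1CKO* libraries 1 and 2, and the calls over all genes fell from 228 to 42.

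At P9 the lowest *Isl1CKO* library had 108 CPM of *Cldn4*, the median was 270 and the highest 713 CPM. The control libraries at P9 had 94.0, 106, 80.9, 56.4 and 159 CPM. The groups overlapped in the *Isl1CKO* library at 108 CPM, which lay below the highest control, and the *Isl1CKO* libraries spread more widely than the controls. On the log2 scale *Isl1CKO* exceeded control by 1.67 (SE 0.39, adjusted p = 0.021, edgeR), a 3.18-fold higher level. The call was lost on leaving out any 1 of controls 1 to 4, with log2 fold changes of 1.52 to 1.69 and adjusted p between 0.0526 and 0.0643, and with limma-voom it stood at 1.52 with an adjusted p of 0.0707. The effect at P9 minus that at E14.5 was 0.85 (SE 0.46, 95% interval -0.09 to 1.80, adjusted p = 0.399), so that a difference of the *Cldn4* effect between the ages was not shown.

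*Cldn5* had the largest fold change among the claudins tested at either age. Its product is the main claudin of endothelial tight junctions, best known from the blood-brain barrier. The gene is a single exon block of 1416 bases on chromosome 16, plus strand, from 18776847 to 18778262. At P9 the *Isl1CKO* libraries had 41.4, 3.83, 33.0, 41.6, 46.6 and 94.8 CPM. The control libraries had 0.700, 1.66, 0.690, 2.06 and 0.395 CPM. Library 2 of *Isl1CKO* lay below the other *Isl1CKO* libraries and still above every control. *Cldn5* was the only 1 of 8 claudins tested at P9 whose groups did not overlap, against 5.38% of all genes tested in either direction. It entered that test through the *Isl1CKO* libraries, the group in which it was high.

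The log2 fold change of *Cldn5* at P9 was 5.30 (SE 0.71, adjusted p = 0.000449, edgeR), a 39.3-fold higher level. It passed the test on leaving out each of the 11 libraries in turn, with log2 fold changes of 4.91 to 5.64. With limma-voom it was 5.08 and the adjusted p was 0.124, the 1 of 9 other settings in which the call was lost. At E14.5 *Cldn5* was below the count filter, with raw counts of 0, 8, 1, 23 and 22 in the *Isl1CKO* libraries and a sum of 32 over the control libraries, where the highest held 19. The effect at P9 minus that at E14.5 was 4.34 (SE 1.25, adjusted p = 0.0682), which missed the threshold, and its 95% interval of 1.76 to 6.92 lay above 0. Without *Isl1CKO* library 2 of P9 it was 4.58 with an adjusted p of 0.0336.

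No endothelial marker of the list was called between the groups at P9. All 12 listed endothelial markers were in the P9 table, 3 of them (*Egfl7*, *Esam* and *Ramp2*) had enough counts for the test, and 5 averaged 1 CPM or more in *Isl1CKO* libraries. Their summed level was 23.3 to 45.3 CPM in *Isl1CKO* and 22.4 to 37.8 CPM in control libraries, with medians of 39.2 CPM in *Isl1CKO* and 25.4 CPM in control libraries. *Cdh5*, the cadherin of endothelial junctions, reached at most 0.687 CPM in *Isl1CKO* and 0.317 CPM in control libraries. *Kdr*, a receptor for vascular endothelial growth factor, reached at most 0.917 CPM in *Isl1CKO* and 1.26 CPM in controls. *Tek* and *Tie1*, receptors of the angiopoietin system, and *Emcn* were at most 0.344, 1.26 and 0.573 CPM in *Isl1CKO* libraries. *Ramp2*, part of a receptor for adrenomedullin, was the most abundant marker of the list in controls, at 1.39 to 19.6 CPM in *Isl1CKO* and 6.44 to 27.0 CPM in control libraries. *Egfl7* stood at 0.302 to 7.56 CPM in *Isl1CKO* and 0.634 to 12.2 CPM in control libraries, and *Flt1* and *Cd34* reached at most 1.38 and 0.840 CPM in *Isl1CKO* and 4.08 and 2.85 CPM in control libraries. *Pecam1* reached 8.82 and *Plvap* 9.98 CPM, each in 1 *Isl1CKO* library and under 3 CPM in the others. *Esam*, an adhesion molecule of endothelial tight junctions that is also in the list of other junction proteins, was higher, at 5.17 to 24.4 CPM in *Isl1CKO* and 0.476 to 5.74 CPM in control libraries, and it missed the threshold (log2 fold change 2.15, SE 0.66, adjusted p = 0.0807). The part of endothelial RNA in the *Cldn5* level was not tested beyond these values.

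**Figure D1:**
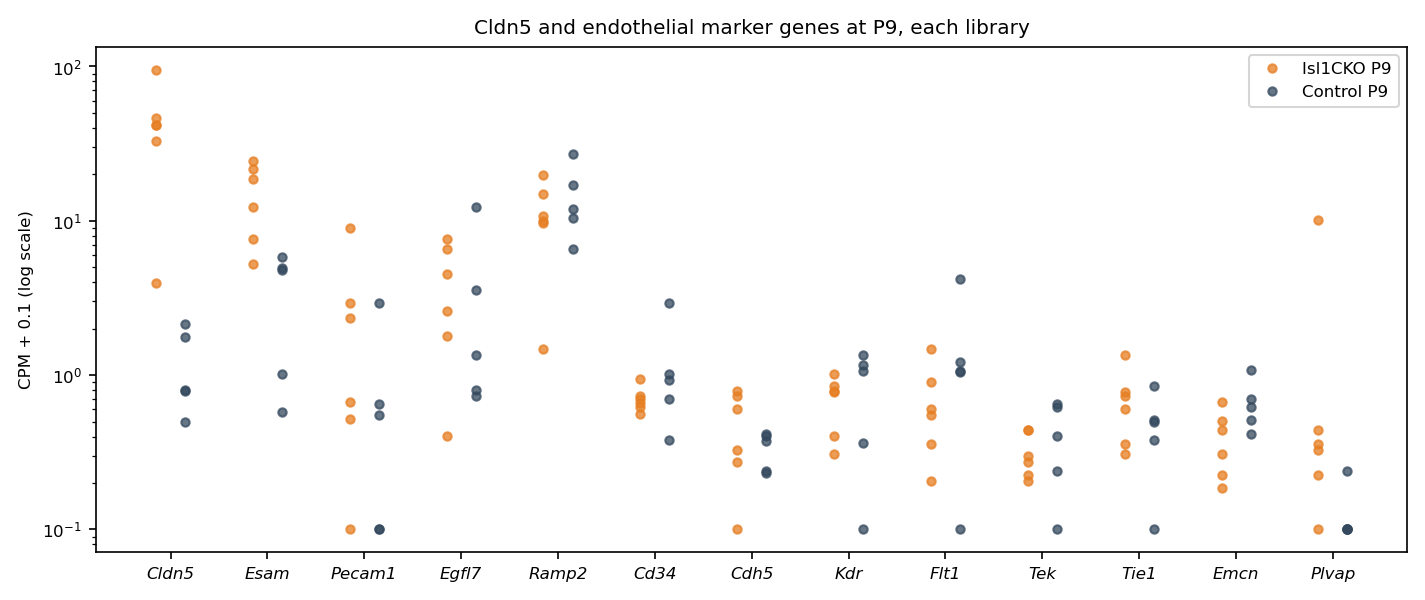
*Cldn5* and the 12 endothelial marker genes at P9. Each point is 1 library, with *Isl1CKO* left of control, and the log axis gives CPM + 0.1. *Cldn5* lies between 3.83 and 94.8 CPM in *Isl1CKO* libraries and at most at 2.06 CPM in controls, while *Cdh5*, *Kdr*, *Tek*, *Tie1* and *Emcn* lie at or below 1.26 CPM in both.

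*Cldn11* fell in *Isl1CKO* cells at E14.5. Its product is known from the myelin of oligodendrocytes and from the Sertoli cell barrier of the testis. The gene has 3 exon blocks on chromosome 3, plus strand, from 31149920 to 31164324. The *Isl1CKO* libraries had 47.4, 35.4, 43.8, 28.8 and 29.7 CPM at E14.5. The control libraries had 42.6 CPM at the lowest, a median of 79.2 and 94.1 CPM at the highest. Control library 1, the lowest, lay below 2 *Isl1CKO* libraries, and the other controls lay above all *Isl1CKO* libraries.

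The log2 fold change of *Cldn11* at E14.5 was -1.03 (SE 0.19, adjusted p = 0.0168, edgeR), a 2.04-fold lower level. Without *Isl1CKO* library 5 it was -0.96 with an adjusted p of 0.0617. The call was also lost in 1 model over all 22 libraries, at -1.03 with an adjusted p of 1.0. Without *Isl1CKO* libraries 3, 4 and 5, which kept only *Isl1CKO* libraries 1 and 2, it was lost at -0.86 with 0.405. At P9 *Cldn11* was low in both groups, with a median of 4.60 CPM in *Isl1CKO* and 3.45 CPM in control libraries, and the log2 fold change there was -0.22 (SE 0.96, adjusted p = 0.95). The sign of that P9 value turned with total-count scaling, to 0.43. Beside the E14.5 result, the 8 mesenchyme markers, 6 of them in the table, summed to 10.0 to 19.4 CPM in *Isl1CKO* and 14.2 to 48.9 CPM in control libraries, and the 8 Schwann and neural crest markers to 52.1 to 72.1 and 50.3 to 98.3 CPM. None of these markers was called, and their part in the *Cldn11* difference was not tested.

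*Cldn7* was the only claudin whose *Isl1CKO* effect differed between the ages with edgeR and TMM scaling. Its product occurs in epithelial junctions and along the basolateral membrane. At E14.5 it stood at 102, 132, 107, 108 and 146 CPM in *Isl1CKO* libraries, against a lowest of 67.2, a median of 90.6 and a highest of 106 CPM in controls. At P9 the *Isl1CKO* libraries had 33.2 CPM at the lowest, a median of 43.2 and a highest of 60.9 CPM. The P9 controls had 65.5, 62.3, 87.5, 50.9 and 90.5 CPM. With TMM scaling *Isl1CKO* libraries thus tended to the high side at E14.5 and to the low side at P9, with overlap at both ages.

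Neither age on its own passed for *Cldn7*. It had a log2 fold change of 0.43 at E14.5 (SE 0.13, adjusted p = 0.138) and -0.68 at P9 (SE 0.22, adjusted p = 0.0896), and DESeq2 gave 0.42 with 0.0311 and -0.69 with 0.0397. The P9 value depended on the scaling. With edgeR it was -0.03 with total counts (adjusted p = 0.943) and -0.80 with totals without the hormone genes (adjusted p = 0.0472). The P9 effect minus the E14.5 effect was -1.11 (SE 0.24, 95% interval -1.61 to -0.60, adjusted p = 0.0157, edgeR), against 1.23% of all genes with a positive and 0.851% with a negative difference called. It passed on leaving out each of the 22 libraries in turn, with adjusted p between 0.0072 and 0.0414. With total counts as the scaling it was -0.48 with an adjusted p of 0.22, a scaling under which the median difference of all genes was 0.681 in place of 0.056.

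*Cldn3* and *Cldn6*, both claudins of epithelia, were not called between *Isl1CKO* and control at either age. *Cldn3* had 27.2, 31.8, 38.2, 43.4 and 56.1 CPM in *Isl1CKO* libraries at E14.5, where controls had a lowest of 16.4, a median of 35.1 and a highest of 46.8 CPM. At P9 it lay between 11.7 and 35.1 CPM in *Isl1CKO* and between 4.28 and 28.7 CPM in control libraries. Its log2 fold changes were 0.20 (95% interval -0.33 to 0.73) at E14.5 and 0.25 (-0.70 to 1.2) at P9. *Cldn3* lies 39279 bases from *Cldn4* on chromosome 5 and is the nearest other claudin to it, and the difference between the fold changes of these neighbours was not tested. An antisense gene, *Wbscr25*, shares 40 bases of exon with *Cldn3*, and the sources used here do not state that the counting used strand.

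*Cldn6*, known as a claudin of embryonic epithelia and pluripotent cells, had 88.6, 85.1, 105, 88.8 and 99.7 CPM in *Isl1CKO* libraries at E14.5. In controls the lowest was 76.8, the median 94.4 and the highest 133 CPM. The log2 fold change was -0.06, with a narrow 95% interval of -0.33 to 0.21. At P9 its log2 fold change was -0.90 with a wide interval of -2.01 to 0.22, at 5.15 to 14.1 CPM in *Isl1CKO* and 6.72 to 38.7 CPM in control libraries.

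*Cldn12* and *Cldn23* were tested at both ages and called at neither. The product of *Cldn12* lacks the PDZ-binding end by which most claudins attach to scaffold proteins. *Cldn12* had 25.4, 20.0, 25.9, 24.2 and 24.1 CPM in *Isl1CKO* libraries at E14.5, against 15.2 at the lowest, 28.3 as median and 34.2 CPM at the highest in controls. At P9 it had 15.9 CPM at the lowest, 23.5 as median and 28.6 at the highest in *Isl1CKO* libraries, against 7.56, 30.1, 17.7, 30.1 and 18 CPM in controls. Its log2 fold changes were -0.17 (95% interval -0.57 to 0.22) and 0.14 (-0.61 to 0.89). With TMM scaling it was thus the claudin with the most even level over the 4 groups, with group means of 20.7 to 27.0 CPM. Evenness between the ages depended on the setting. Between P9 and E14.5 controls, 7 other settings gave log2 fold changes of -1.59 to -0.34, and 1 of them called *Cldn12* as lower.

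*Cldn23* had 18.2, 14.6, 18.3, 15.5 and 12.0 CPM in *Isl1CKO* libraries at E14.5. Controls at E14.5 had a lowest of 4.31, a median of 9.34 and a highest of 18.1 CPM. The groups overlapped, and the log2 fold change was 0.57 (95% interval -0.13 to 1.26). At P9 it varied from 0 to 16.9 CPM in *Isl1CKO* and from 0 to 12.0 CPM in control libraries, 1 library of each group held no count, and the log2 fold change of -0.13 had a 95% interval of -2.29 to 2.02.

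*Cldn10* and *Cldn1* were too low for the test between *Isl1CKO* and control at either age. *Cldn10*, whose product forms ion pores in kidney tubules, had at most 4 raw counts in *Isl1CKO* and 50 in control libraries at E14.5, and at most 34 and 39 at P9. Outside the *Isl1CKO* group of E14.5, its counts lay mostly in a few libraries of each group. *Cldn1*, whose product is needed for the water barrier of the skin, had at most 10 raw counts in *Isl1CKO* and 1 in control libraries at E14.5, and at most 5 and 3 at P9. As neither was tested, a difference of either gene between *Isl1CKO* and control was neither shown nor excluded.

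**Figure D2:**
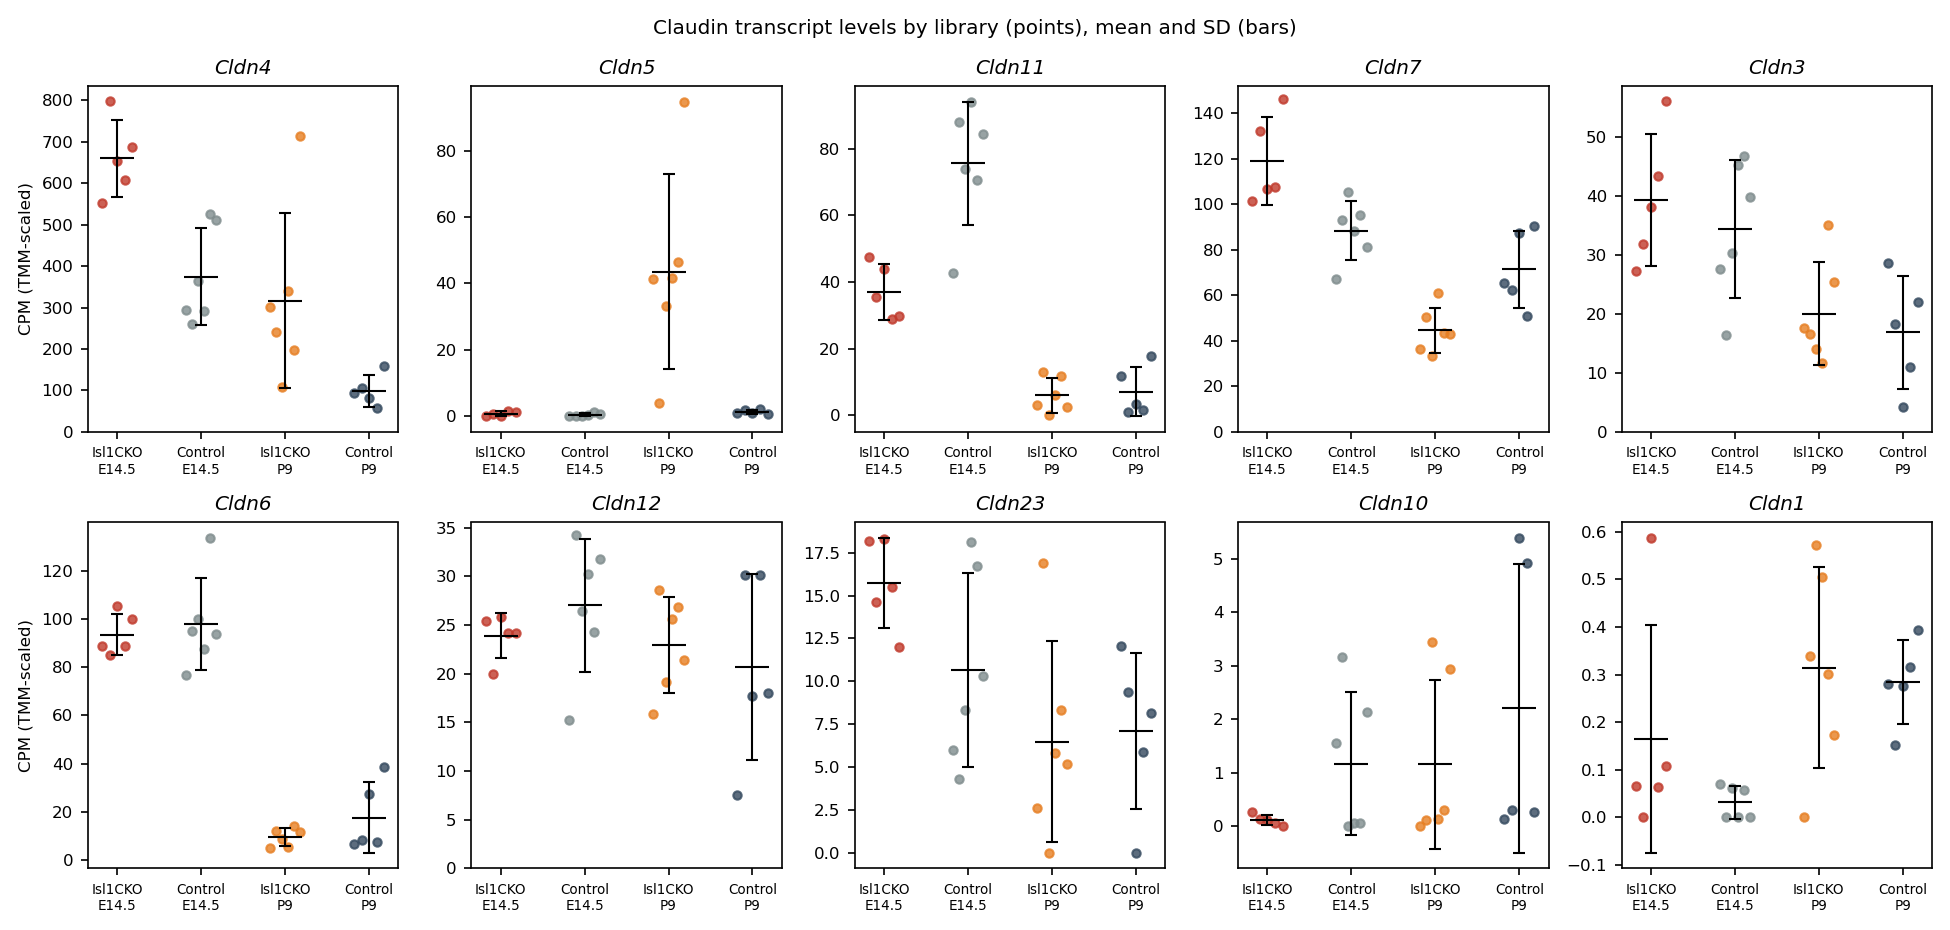
Level of the 10 claudins in the 22 libraries. Each point is 1 library in CPM, the black bar and whiskers are the mean and SD, and each panel has its own linear axis. *Cldn4* separates *Isl1CKO* from control at E14.5, with 552 CPM as the lowest *Isl1CKO* and 525 as the highest control library, and *Cldn5* is above 3 CPM in *Isl1CKO* libraries of P9 only.

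**Figure D3:**
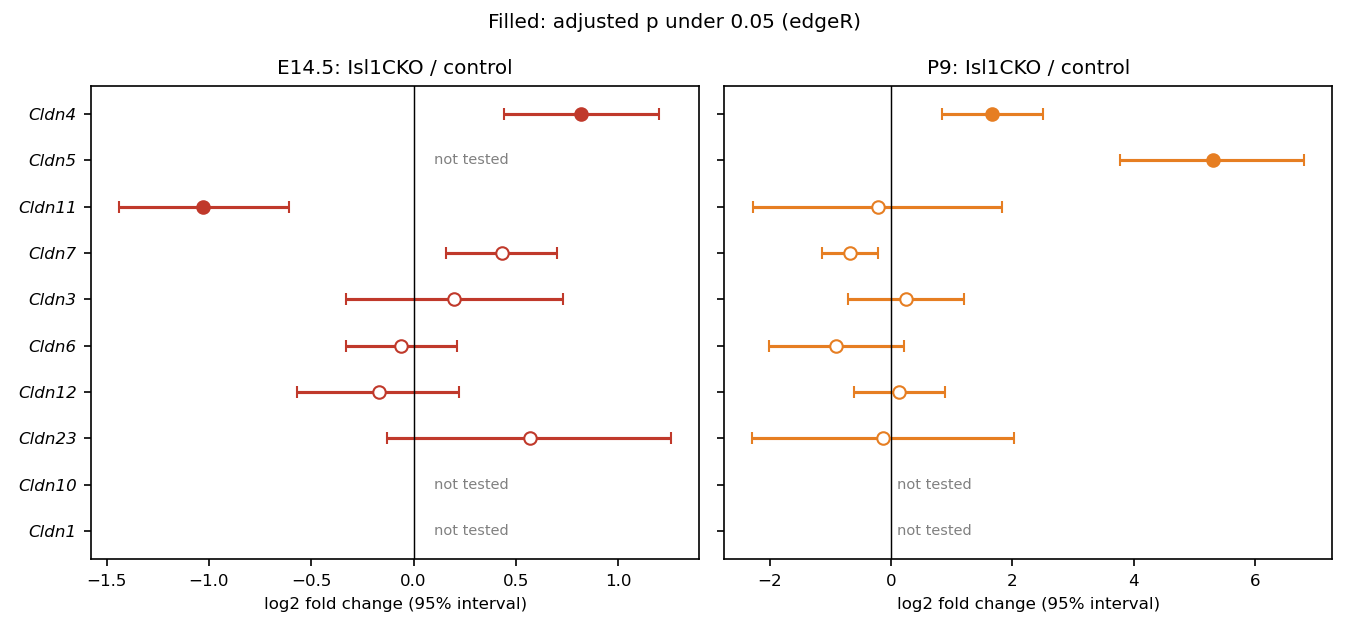
Log2 fold change of *Isl1CKO* over control for each claudin at E14.5 and at P9, with 95% intervals from edgeR on separate axes. Filled points passed an adjusted p under 0.05, which are *Cldn4* (0.82) and *Cldn11* (-1.03) at E14.5 and *Cldn4* (1.67) and *Cldn5* (5.30) at P9.

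In control cells, 4 claudins were lower at P9 than at E14.5 and none was higher. *Cldn11* was 10.6-fold lower (log2 fold change -3.41, SE 0.70, adjusted p = 0.000616, edgeR), *Cldn6* 5.52-fold lower (-2.46, 0.38, 2.7e-05), *Cldn4* 3.77-fold lower (-1.91, 0.34, 0.000135) and *Cldn3* 2.04-fold lower (-1.03, 0.37, 0.039). The other 5 claudins tested did not pass, with log2 fold changes of -0.31 for *Cldn7*, -0.39 for *Cldn12*, -0.59 for *Cldn23*, 0.91 for *Cldn10* and 1.71 for *Cldn5*. Over all genes tested 15.8% were higher and 15.2% lower at P9, so that 4 of 9 claudins compares with a broad change between these ages. The median log2 fold change was -0.59 over the claudins tested and -0.04 over all genes tested. The call of *Cldn3* was lost without any 1 of controls 4, 5 and 6 of E14.5 or 2, 3 and 4 of P9, with log2 fold changes of -1.06 to -0.78 and adjusted p between 0.0571 and 0.0936. Age and the collagenase step cannot be told apart in these values.

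The order of the claudins by CPM per kb was led by *Cldn4* in each group, and the ranks behind it differed between ages. At E14.5 *Isl1CKO* cells had *Cldn7* at 61.0 ± 9.94 and *Cldn6* at 54.3 ± 5.00 CPM per kb next (SD, n = 5), and these neighbours overlapped. Controls had *Cldn6* at 56.8 ± 11.1, *Cldn7* at 45.4 ± 6.75 and *Cldn11* at 40.4 ± 9.82 CPM per kb next (SD, n = 6), each overlapping the one after it. The gap between *Cldn4* and the second claudin was free of overlap in both groups of E14.5. At P9 *Isl1CKO* cells had *Cldn5* at 30.7 ± 20.8 and *Cldn7* at 22.9 ± 5.15 CPM per kb next (SD, n = 6), whereas controls had *Cldn7* at 36.6 ± 8.75 and *Cldn3* at 13.4 ± 7.57 CPM per kb next (SD, n = 5). *Cldn5* was ninth of 10 in P9 controls, at 0.778 ± 0.507 CPM per kb. *Cldn4* overlapped its next neighbour in both groups of P9.

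Across the 4 groups, *Cldn4* ran from *Isl1CKO* at E14.5 with 659.8 CPM through control at E14.5 with 374 CPM and *Isl1CKO* at P9 with 316.5 CPM to control at P9 with 99.2 CPM, and only the first of these steps was free of overlap. For *Cldn6* and *Cldn11* the step free of overlap lay between both groups of E14.5 and both groups of P9. For *Cldn5* it lay between *Isl1CKO* at P9 and the other 3 groups. For *Cldn7*, *Cldn3*, *Cldn12*, *Cldn23*, *Cldn10* and *Cldn1* every neighbour in the order overlapped.

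**Figure D4:**
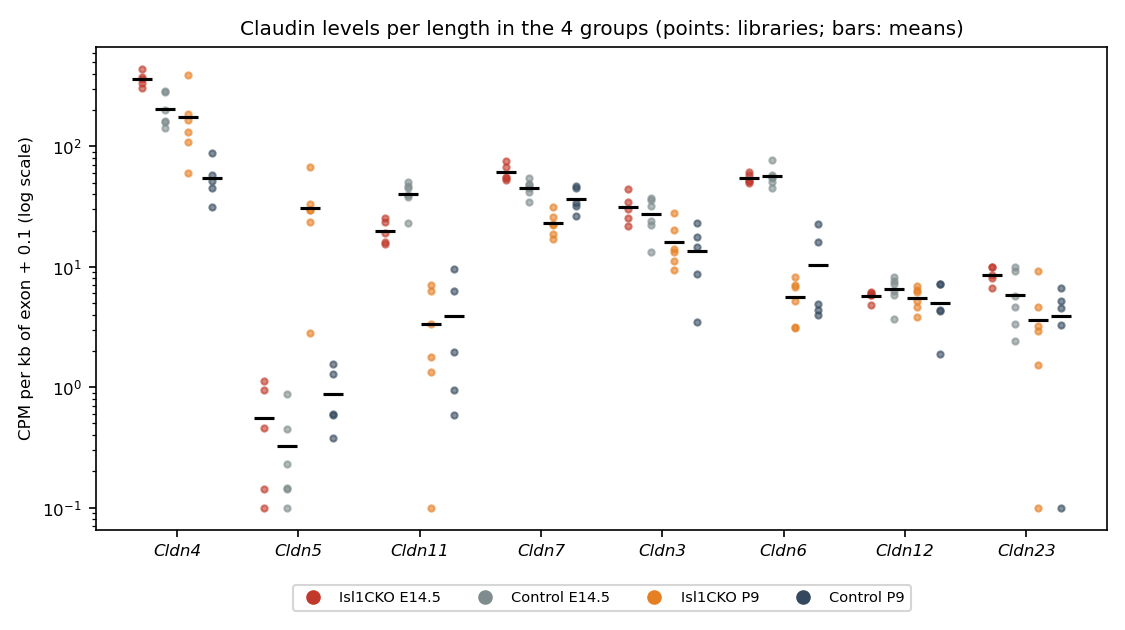
Level of 8 claudins per length in the 4 groups, as CPM per kb of exon + 0.1 on a log axis. Points are libraries and black bars are group means, with *Isl1CKO* left of control at each age. *Cldn4* has the highest group means, from 54.6 to 363 CPM per kb, and *Cldn5* has a mean of 30.7 in *Isl1CKO* at P9 and under 1 CPM per kb in the other groups.

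Of the other genes of the tight junction, 2 were called between *Isl1CKO* and control, both at P9. Among 19 further genes of the claudin family and claudin domain genes, 3 were tested at E14.5 and 2 at P9, and none was called. Among 12 other membrane proteins of the junction, 11 were tested at each age. None was called at E14.5, and 2 rose and none fell at P9. Of the 2, *Ildr2* had a median of 0.605 CPM in P9 controls and met the count filter through the *Isl1CKO* libraries. It could thus hardly have been called as lower. Over all genes tested at P9, 2.66% rose and 2.14% fell. Among 17 scaffold and polarity proteins, which link the strands to the cytoskeleton, none of the 17 tested at E14.5 and none of the 16 tested at P9 was called. The median log2 fold change at P9 was 0.27 for the other membrane proteins and -0.15 for the scaffold proteins, against 0.02 over all genes tested.

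The 2 membrane protein genes that rose at P9 were *Ocln* and *Ildr2*. *Ocln* encodes occludin, a companion of the claudins in the strands. It had 30.0 CPM at the lowest, 60.7 as median and 107.5 at the highest in *Isl1CKO* libraries of P9, against 28.3, 20.9, 12.6, 19.2 and 29.1 CPM in controls. Every *Isl1CKO* library was above every control, by a small margin of 30.0 against 29.1 CPM. Such a lack of overlap, in either direction, held for 5.38% of all genes tested at P9. The log2 fold change of *Ocln* was 1.55 (SE 0.32, adjusted p = 0.00943, edgeR). At E14.5 its log2 fold change was 0.00 (95% interval -0.38 to 0.39), and the P9 effect minus the E14.5 effect was 1.56 (SE 0.38, adjusted p = 0.0287).

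*Ildr2*, of the angulin family that marks contacts where 3 cells meet, had 36.6, 70.4, 62.6, 1.01, 6.54 and 2.59 CPM in *Isl1CKO* libraries of P9. Controls had 0.280, 0.605, 0.690, 4.44 and 0.395 CPM. The 3 high *Isl1CKO* libraries set the mean, and 2 of the others lay below the highest control. *Ildr2* gained 4.55 on the log2 scale (SE 1.12, adjusted p = 0.0301, edgeR), and at E14.5 it was 1.17 (SE 0.85, adjusted p = 0.671). In *Isl1CKO* library 2 of P9, where *Cldn5* was lowest, *Ildr2* was highest.

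**Figure D5:**
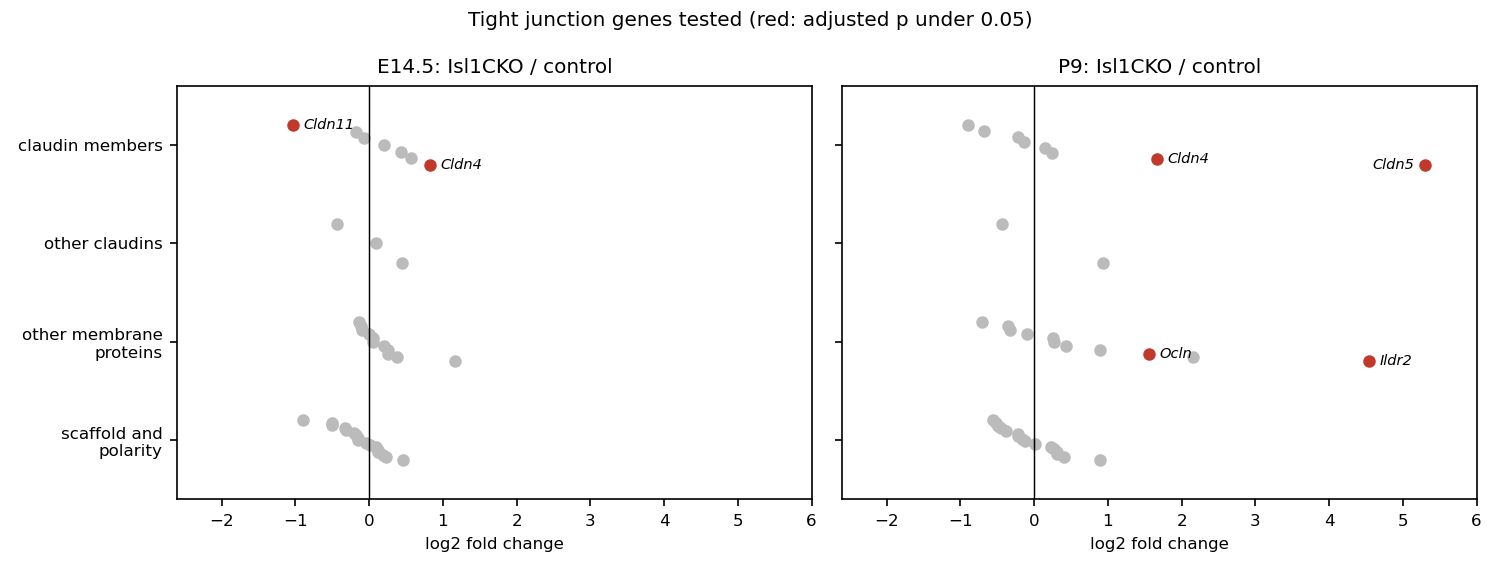
Log2 fold change of *Isl1CKO* over control for the tight junction genes tested, by list, at E14.5 and at P9. Each point is 1 gene, red where the adjusted p was under 0.05 (edgeR), and the called genes outside the claudin members are *Ocln* (1.55) and *Ildr2* (4.55) at P9.

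Of the genes that neighbour the 3 claudins on their chromosomes, 1 of 19 tested was called at E14.5 and 4 of 16 at P9. Over all genes the shares called were 0.602% higher and 0.827% lower at E14.5, and 2.66% higher and 2.14% lower at P9. Of the 8 genes next to *Cldn4*, 4 on each side, 6 were tested at E14.5 with none called, and 4 at P9 with 1, *Mettl27*, called as higher. Of the 8 next to *Cldn5*, 6 were tested at E14.5 and 5 at P9, and none was called. Of the 8 next to *Cldn11*, 7 were tested at E14.5 with 1, *Slc7a14*, called as lower, and 7 at P9 with *Skil* and *Kcnmb2* higher and *Slc7a14* lower. These 4 neighbours are named after their values were seen.

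The genes whose levels over the 22 libraries were most like those of the claudins called were found among 17265 genes, by the root mean square distance between z scores of log2(CPM + 1). For *Cldn5* these were *Dcdc2a* at a distance of 0.422, *Cd24a* at 0.425 and *Smc6* at 0.452, where the median gene stood at 1.44. All 3 were themselves called as higher in *Isl1CKO* at P9, with log2 fold changes of 2.90, 2.18 and 1.16 in the libraries that also chose them. For *Cldn4* they were *Kcnh6* at 0.442, *Sorcs2* at 0.446 and *Cd164l2* at 0.461, and none of these was called at either age. For *Cldn11* they were *Klhl13* at 0.377, the pseudogene *Slc2a4rg-ps* at 0.412 and *Rhbdd2* at 0.421, where *Klhl13* was called as lower at E14.5, at a log2 fold change of -1.09, again in the libraries that chose it.

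Several features of the libraries move with the groups and stand beside these results. Libraries held 8477482 to 13580985 counts. The 8 islet hormone genes took 13.98% to 30.2% of the counts in *Isl1CKO* and 51.1% to 56.4% in control libraries of P9, and 0.710% to 2.49% and 2.44% to 6.17% at E14.5. Scaling by total counts therefore moved the median of all genes at P9 to 0.682 on the log2 scale, against 0.023 with TMM, and made 96.2% of all calls higher against 55.4%, while 38.1% were higher with library totals from which the hormone genes were left out. *Cldn4* and *Cldn5* were called as higher at P9 under each of these scalings. The same change of scaling made 97.2% of the calls between the ages positive against 59.1%, with 40.7% without the hormone genes, and 5.68% of those between P9 and E14.5 controls higher against 50.9%.

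Markers of endocrine progenitors summed to 831 to 1041 CPM in *Isl1CKO* and 502 to 704 CPM in control libraries at E14.5. At P9 they summed to 288 to 557 CPM in *Isl1CKO* and 230 to 291 CPM in control libraries. Called as higher were 2 of the 8 tested at E14.5 and 2 of the 7 tested at P9. Over all genes tested, 0.602% were called as higher at E14.5 and 2.66% at P9. Markers of duct and trunk epithelium, a tissue rich in claudins, summed to 1677 to 1972 CPM in *Isl1CKO* and 1337 to 1907 CPM in controls at E14.5. At P9 they summed to 1350 to 2225 CPM in *Isl1CKO* and 1086 to 1443 CPM in controls. Of these, 1 of the 11 tested was called as higher at E14.5 and none of the 10 tested at P9. Hepatoblast markers, a list that holds *Ttr*, which pancreatic endocrine cells also express, separated the groups at both ages. At E14.5 they summed to 4715 to 6467 CPM in *Isl1CKO* and 3062 to 3792 CPM in controls, with 3 of 8 tested called as higher. At P9 they summed to 5809 to 8965 CPM in *Isl1CKO* and 1670 to 5216 CPM in controls, with 1 of 3 tested called as higher. *Ttr* made up most of these sums, at a mean of 5806 CPM in *Isl1CKO* and 3349 CPM in controls at E14.5, and of 7307 CPM in *Isl1CKO* and 3470 CPM in controls at P9. The part of any of these in the claudin results was not tested. *Isl1* itself, counted over all its exons with those that the floxed allele keeps, stood at 552 to 714 CPM in *Isl1CKO* and 786 to 1046 CPM in controls at E14.5, and at 450 to 1244 CPM in *Isl1CKO* and 360 to 531 CPM in controls at P9, so that its count does not check the deletion.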

How the data were processed

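RNA-seq of 22 libraries was used, each from 100 sorted tdTomato+ cells. The authors trimmed reads with cutadapt 1.18 and Trimmomatic, removed ribosomal reads with Bowtie 1.2.2 and SortMeRNA, mapped the rest to GRCm38.p6 with STAR 2.7.0c and counted them per gene with Rsubread, and the 2 deposited tables (27124 genes at E14.5, 27504 at P9) hold raw counts per Ensembl gene. Every gene in them has at least 10 counts over its libraries. Symbols, positions and exon lengths came from GENCODE M21, and start regions from RefSeq.

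Counts were filtered with filterByExpr, scaled by TMM and tested with edgeR 4.0.16 (glmQLFit, glmQLFTest) in R 4.3.3, with Benjamini-Hochberg adjustment over all genes tested (15960 at E14.5, 13964 at P9, 17265 over both ages). Adjusted p-values are those of edgeR unless another tool is named, the threshold was 0.05, and the standard error is the log2 fold change over the square root of F. *Isl1CKO* was compared with control within each age. The difference between the ages and that between controls came from 1 model over all libraries, with the 24296 genes of both tables. Alternatives were DESeq2 1.42.0, limma-voom (limma 3.58.1), other scalings and filters, the replicate number as a block, 1 model over all libraries and leaving out libraries. The edgeR test with TMM scaling and filterByExpr was tried on simulated counts with known changes for each comparison. The alternatives were not.

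The 10 members are all named, with values in every library where they were called or averaged 100 or more scaled counts in any group (medians and extremes in groups of 6), as is every called gene of the junction lists. The members and lists were chosen with earlier results of these data known. Libraries of a group differed by far more than sampling noise, so none was counted as a duplicate. Depth was 8477482 to 13580985 counts.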

Additional observations from a re-analysis of the deposited data

Results flagged for a closer look

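The effect of *Isl1CKO* on *Cldn7* differed between the ages by a test of the difference itself, at a log2 value of -1.11 for the P9 effect minus the E14.5 effect (standard error 0.24, adjusted p = 0.0157, edgeR's interaction term over 22 libraries). The effect was 0.43 at E14.5 and -0.68 at P9. By Dixon's test on CPM without a log, no library passed the 95% criterion in the 33 gene and group pairs with a mean of 1 CPM or more. That holds also for *Isl1CKO* library 2 of P9, which was low in *Cldn5* at 3.83 CPM, where the next had 33.0 and the highest 94.8 CPM. The search was not run on the log scale of the fold changes, so it does not show that this library is ordinary there.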

How the results depend on the processing

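Of 827 values of single claudins under the alternatives, 767 kept their direction and their side of the threshold, 28 lost a call, 11 gained one and 21 turned sign, all of the last in values that had not passed. The number of claudins called at E14.5 (2) was 1 with the replicate block (*Cldn11* lost, at -0.98 with an adjusted p of 0.137), 0 in 1 model over all 22 libraries and 0 without *Isl1CKO* libraries 3, 4 and 5, and at P9 (2) it was 0 with limma-voom and 1 with the replicate block (*Cldn4* lost, at 1.22 with an adjusted p of 0.0835). The numbers do not pair the libraries (correlations of -0.051 to 0.054 between same-numbered libraries of an age). The number of claudins whose effect differed between the ages (1) was 2 with DESeq2, which adds *Cldn5* to *Cldn7*, and 2 with total counts, which give *Cldn4* and *Cldn5*. The number that differed between P9 and E14.5 controls (4) stayed within 1.5 times under each alternative.

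Over all genes, DESeq2 called 538 at E14.5, 1211 at P9 and 871 between the ages, where edgeR called 228, 671 and 359. The replicate block gave 134 and 333 at the 2 ages, 1 model over all 22 libraries 59 and 1814, and E14.5 without *Isl1CKO* libraries 3, 4 and 5 gave 42. Total counts gave 3975 at P9, 3199 between the ages and 10636 between the controls (5347 with TMM). Leaving out 1 library gave 0 to 2 claudins at E14.5, 1 to 2 at P9, 1 to 2 between the ages and 3 to 4 between the controls, and 114 to 227, 467 to 682, 219 to 484 and 4755 to 5649 over all genes.

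Signs turned for *Cldn3* at E14.5 (-0.21 without *Isl1CKO* libraries 3, 4 and 5), for *Cldn11* (0.43) and *Cldn23* (0.53) at P9 and *Cldn10* between the controls (-0.22) with total counts, and for *Cldn3* between the ages (-0.04 with totals without the hormone genes). Leaving out 1 library gave -0.12 to 0.05 for *Cldn6* at E14.5, -0.60 to 0.44 for *Cldn11*, -0.07 to 0.31 for *Cldn12* and -0.70 to 0.14 for *Cldn23* at P9, and -0.19 to 0.34 for *Cldn3* between the ages. The cause was not tested. Low counts limit *Cldn1*, *Cldn10* and, at E14.5, *Cldn5*. They were below the count filter between *Isl1CKO* and control, so that a difference was neither shown nor excluded.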
